A study of Mus musculus with 14 samples.

Results

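The genes described here encode calcineurin and the multifunctional calmodulin-dependent protein kinases (CaM kinases) of the mouse spinal cord. Members were the 10 genes *Camk2a*, *Camk2b*, *Camk2d*, *Camk2g*, *Camk4*, *Camkk2*, *Ppp3ca*, *Ppp3cb*, *Ppp3cc* and *Ppp3r1*, found by symbol among 19215 genes of the RNA-seq tables, and the 29 cassette exon events that carry the same gene identifiers among 13189 events. Cassette exons are internal exons that splicing keeps or leaves out, and an event is 1 such exon with 1 pair of flanking exons. The 29 events held 26 distinct exons in 9 of the genes, and no event was listed for *Ppp3r1*.

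Calcineurin and the CaM kinases read the same signal, calcium bound to calmodulin, and act in opposite directions. Calcineurin is a serine/threonine phosphatase made of a catalytic A subunit (*Ppp3ca*, *Ppp3cb* or *Ppp3cc*) and a regulatory B subunit (*Ppp3r1*), and it is known for the dephosphorylation of NFAT transcription factors. The CaMKII isoforms (*Camk2a*, *Camk2b*, *Camk2d* and *Camk2g*) assemble into large holoenzymes through a hub domain, which a variable linker joins to the kinase domain, whereas CaMKIV (*Camk4*) is a monomeric, largely nuclear kinase that *Camkk2* activates by phosphorylation. *Camk2a* and *Camk2b* are the isoforms best known from forebrain synapses.

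Transcript levels and exon inclusion were measured in whole spinal cord (WSC) RNA-seq libraries of 1 male and 1 female mouse. Both were 12-week-old Tg(SOD1)2Gur/J mice, which carry a wild type human SOD1 transgene (SOD1 WT), on a B6/SJL background, so every RNA-seq value comes from the transgenic genotype. NOVA HITS-CLIP, in which RNA fragments crosslinked to the neuronal RNA-binding protein NOVA are immunoprecipitated and sequenced as tags, was performed on 3-month-old C57BL/6 mice. Motoneuron (MN) CLIP used 4 libraries of pooled spinal cords from hemizygous mice of Chat:GFP-Nova line 6 and 4 from line 17, in which the *Chat* promoter of a bacterial artificial chromosome drives GFP-tagged NOVA2 and anti-GFP antibodies pull it down. WSC CLIP used 4 libraries of single wild type spinal cords, in which an anti-NOVA serum pulled down the endogenous protein. MN and WSC CLIP thus also differed in genotype, antibody, NOVA protein, pooling of mice and depth, and these cannot be told apart from the cell type. All 4 WSC libraries and 4 of the MN libraries had a long barcode and tags of up to 80 nt. The remaining MN libraries had a short barcode and tags of up to 34 or 47 nt.

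Depth set how firmly each value can be read. The male and the female RNA-seq library held 72006019 and 65625173 reads on genes. MN CLIP libraries held 65961 to 871804 unique tags and WSC CLIP libraries 2213104 to 6095995. Of the tags that lay on the genes counted, 33.2 to 46.3% in MN and 60.5 to 65.7% in WSC libraries were on annotated exons. The labelled tissues were compared with marker lists. In RNA-seq the summed level of 5 oligodendrocyte markers was 7577 RPKM in the male and 8212 RPKM in the female library, while all 4 skeletal muscle and all 4 sensory neuron markers were under 1 RPKM. In CLIP the motoneuron markers *Chat*, *Slc5a7* and *Chodl* were higher in MN than in WSC by 3.08, 2.24 and 2.48 on the log2 scale, and all 4 inhibitory interneuron markers were lower.

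The alternative exons of the members were short, and their sequences are shown because paralogous genes use related exons at very different rates. Sequences are those of the mm9 genome (NCBIM37), read on the strand of the gene. Capitals mark the NOVA motif, spelled TCAT in its first form and TCAC in the next, or with a leading cytosine CCAT as well as CCAC, searched on the sense strand only because NOVA binds RNA, with overlapping matches counted. The calcineurin A exons were the following.
Ppp3ca 30-nt exon (chr3:136594975-136595004, plus strand): ctactgttgaggctattgaggctgatgaag
Ppp3cb 30-nt exon (chr14:21322469-21322498, minus strand): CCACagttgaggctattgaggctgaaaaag
Ppp3cc 27-nt exon (chr14:70625735-70625761, minus strand): aTCACtacatttcaagctgtccaaaag
The 30-nt exons of *Ppp3ca* and *Ppp3cb* had the same letter at 26 of 30 positions (86.7%). They encode a short stretch in the regulatory tail of the catalytic subunit. The 27-nt exon of *Ppp3cc* matched the 27-nt exon of *Ppp3cb*, described next, at 14 of 27 positions (51.9%).

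The 27-nt exon of *Ppp3cb* was rarely included in WSC, yet it lay in a stretch dense in NOVA motifs and in CLIP tags from both groups. The exon, its last 27 bases in the line given here, is shown with the 200 nt before it.
Ppp3cb 27-nt exon and upstream intron (chr14:21330696-21330922, minus strand): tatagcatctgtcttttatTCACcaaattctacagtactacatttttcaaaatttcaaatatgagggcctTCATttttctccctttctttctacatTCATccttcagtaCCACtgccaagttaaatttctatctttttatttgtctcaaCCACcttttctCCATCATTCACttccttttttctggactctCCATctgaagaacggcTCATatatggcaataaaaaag
The 227 nt held 10 motifs, 9 of them in the 200 nt before the exon. Among 12002 distinct cassette exons of the series, 1.41% had as many motifs in that stretch, while 94.9% had at least 1. Over the 26 member exons the median was 4 motifs before and 4 after the exon, against 3 and 3 over all exons.

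Apart from the last exon listed, the CaMKII exons printed here lie in the variable linker between kinase and hub. The 33-nt exon of *Camk2d*, *Camk2g* and *Camk2a* encodes the insert with a nuclear localization signal, and the 42-nt and 45-nt exons of *Camk2d* and *Camk2b* are counterparts further along the linker. The 63-nt exon of *Camk2g* is shown because its inclusion differed between the libraries, as described below. It overlaps no annotated coding sequence of the reference, and no annotated exon shares both of its ends.
Camk2d 33-nt exon (chr3:126505855-126505887, plus strand): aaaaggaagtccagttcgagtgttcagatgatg
Camk2g 33-nt exon (chr14:21567041-21567073, minus strand): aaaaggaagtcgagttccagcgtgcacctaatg
Camk2d 60-nt exon (chr3:126508775-126508834, plus strand): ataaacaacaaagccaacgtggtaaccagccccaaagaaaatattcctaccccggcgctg
Camk2g 69-nt exon (chr14:21565014-21565082, minus strand): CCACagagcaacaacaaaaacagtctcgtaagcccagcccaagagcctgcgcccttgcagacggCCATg
Camk2d 42-nt exon (chr3:126511126-126511167, plus strand): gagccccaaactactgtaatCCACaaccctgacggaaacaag
Camk2b 45-nt exon (chr11:5881073-5881117, minus strand): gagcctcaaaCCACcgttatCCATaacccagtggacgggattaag
Camk2g 63-nt exon (chr14:21576888-21576950, minus strand): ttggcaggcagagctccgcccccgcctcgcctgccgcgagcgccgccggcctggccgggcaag
The 33-nt exons of *Camk2d* and *Camk2g* had the same letter at 26 of 33 positions (78.8%) and held no motif. The 200 nt after the 33-nt exon of *Camk2g* held 12 motifs, a number reached by 0.267% of all cassette exons. A motif match is a description of the sequence and not of binding.

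Among the calcineurin genes, *Ppp3ca* was by far the highest catalytic subunit of the spinal cord. Its level, in RPKM (reads scaled to the exon length of the gene and to the reads on genes of the library), was 215 in the male and 190 in the female mouse, which gave a mean of 203 ± 17.7 (SD, n = 2) and placed 98.9% of all genes below it. The regulatory subunit *Ppp3r1* had 147 and 132 RPKM. *Ppp3cb* followed with 75.3 and 80.3 RPKM, and *Ppp3cc* with 8.85 and 11.5 RPKM. Of the summed RPKM of the 3 A subunits, *Ppp3ca* made up 69.7% ± 3.14, *Ppp3cb* 26.8% ± 2.35 and *Ppp3cc* 3.51% ± 0.785 (SD, n = 2). The B subunit gene thus stood below the summed A subunits, which reached 300 and 282 RPKM.

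*Camk2g* was the main CaMKII transcript, not the forebrain isoforms. It had 147 RPKM in the male and 131 RPKM in the female mouse, *Camk2b* 53.3 and 41.5, *Camk2d* 20.01 and 18.8, and *Camk2a* 20.03 and 17.0. *Camk2g* made up 62.0% ± 1.27 of the summed CaMKII RPKM, *Camk2b* 21.1% ± 1.60, *Camk2d* 8.68% ± 0.478 and *Camk2a* 8.25% ± 0.148 (SD, n = 2). The nuclear kinase *Camk4* had 6.17 and 5.01 RPKM and its activating kinase *Camkk2* had 5.50 and 5.40 RPKM. In whole tissue, fewer cells of a type and less RNA per cell cannot be told apart.

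In the order of mean levels (*Ppp3ca*, *Ppp3r1*, *Camk2g*, *Ppp3cb*, *Camk2b*, *Camk2d*, *Camk2a*, *Ppp3cc*, *Camk4*, *Camkk2*), the values of the libraries overlapped between 3 pairs of neighbours, *Ppp3r1* and *Camk2g*, *Camk2d* and *Camk2a*, and *Camk4* and *Camkk2*. All other neighbours were separate in the 2 libraries. All 10 members were at 1 RPKM or more, and their median of 33.4 RPKM compares with 10.3 RPKM over the 11940 genes of the series at that level.

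**Figure D1:**
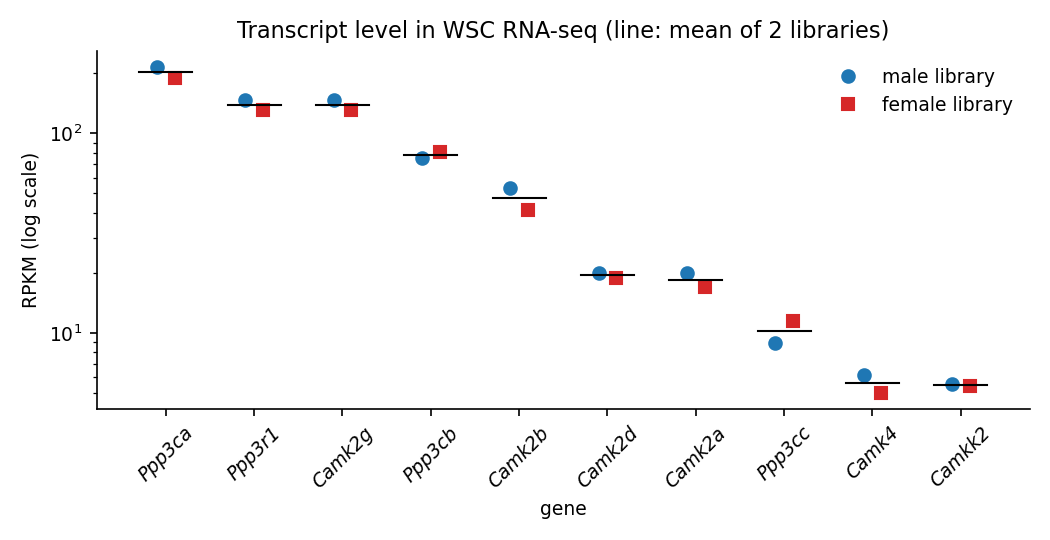
Transcript level (RPKM, log axis) of the 10 genes in the male (circles) and female (squares) WSC RNA-seq library, ordered by their mean (line). Ppp3ca is highest at 215 and 190 RPKM and Camkk2 lowest at 5.50 and 5.40 RPKM.

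Levels differed little between the 2 libraries, for which sex, animal and library cannot be told apart. *Camk2b* was 1.28-fold higher in the male and *Ppp3cc* 1.29-fold higher in the female library, and in the other 8 members the libraries differed by less than 25%. Of all genes at 1 RPKM or more, 15.0% differed by more than 25%, 8.86% with the male and 6.16% with the female library higher, so 1 of 10 members in each direction is near the background. With 1 library per sex there is no test.

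Other genes of the pathway were taken from a list of 29 calmodulin, CaM kinase, calcineurin inhibitor and NFAT genes and related calmodulin-binding proteins. All 29 were found and 26 had at least 1 RPKM. Their median was 13.9 RPKM. *Calm2* and *Calm3*, which encode calmodulin, had mean levels of 966 and 684 RPKM. The second calcineurin B gene, *Ppp3r2*, known from testis, was at 0.285 RPKM. Of these 26 genes, 7 were over 25% higher in the male library and 0 in the other. Among all genes at 1 RPKM or more, 8.86% were past that difference with the male higher and 6.16% with the female higher. The count rests on 1 library per sex, so it was not tested and does not separate sex from animal or library.

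Of the 29 cassette exon events, 13 had a mean inclusion rate of 5 to 95%, 10 were above 95% and 6 were below 5%. The inclusion rate divides the mean read number of both inclusion junctions by the sum of this mean and the skipping reads. All 29 events had at least 10 junction reads in each library (28 to 1453). Of all covered events of the series, 36.6% lay between 5 and 95%, against 44.8% of the member events. In 12 of the 13 the exon length was divisible by 3, as a coding exon needs for inclusion and skipping to keep the reading frame. One of these, the 63-nt exon of *Camk2g*, is not annotated as coding. The 42-nt exon of *Camk2d* and the 33-nt and 69-nt exons of *Camk2g* were each counted with different flanking exons, so the events are not distinct exons. The share divisible by 3 over all events of the series at 5 to 95% was not taken, so the count shows no trait particular to the members.

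Calcineurin A paralogs used their short exons differently. The 30-nt exon was included at 19.0% in the male (95% Wilson interval 16.9 to 21.2) and at 20.02% in the female library (17.7 to 22.6) in *Ppp3ca*, but at 100% in both libraries in *Ppp3cb*, where 0 of 332 and 0 of 245 reads from the upstream exon skipped it. The intervals for *Ppp3ca* lie far from the lower bounds of 98.8 and 98.5% for *Ppp3cb*. The 27-nt exon was at 1.79 and 2.98% in *Ppp3cb* (intervals 0.820 to 3.84 and 1.60 to 5.48), and no annotated exon of the reference shares both of its ends. Intervals cover counting error only.

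CaMKII linker exons were combined in gene-specific ways. In *Camk2d*, 80.1% of the male and 85.1% of the female junction reads that left the constant exon before the linker went to the 60-nt exon, 8.53 and 7.44% to the 33-nt exon, 2.84 and 1.65% to the 42-nt exon, and 8.53 and 5.79% skipped all 3. From the 60-nt exon, 81.4 and 87.1% of the reads continued to the 42-nt exon. In *Camk2g* the order was turned: 78.2 and 81.5% of the reads went to the 33-nt exon, 15.9 and 12.8% to the 69-nt exon, and 5.96 and 5.67% skipped both.

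After the 33-nt exon of *Camk2g*, only 11.4 and 15.8% of the reads continued to the 69-nt exon. Among reads leaving the constant exon, the insert with the nuclear localization signal was thus the main choice in *Camk2g* and a minor one in *Camk2d*. The intervals were 74.5 to 81.4 and 77.8 to 84.7% against 5.46 to 13.1 and 3.96 to 13.5%. The inclusion rate of the *Camk2d* 33-nt event was 49.3 and 72.0%, because that event leaves out the reads to the 60-nt and 42-nt exons. Likewise, the rate of the 69-nt exon of *Camk2g* was 84.2 and 78.9% with the constant exon as upstream flank. With the 33-nt exon as upstream flank it was 23.5 and 20.3%. In *Camk2a*, 45.5 and 34.5% of the reads went to its 33-nt exon. The 45-nt exon of *Camk2b* was included at 25.3% (22.2 to 28.7) and 28.9% (24.9 to 33.2), while its counterpart of 42 nt in *Camk2d* was included at 82.0% (75.9 to 86.7) and 88.2% (82.1 to 92.4) when joined to the 60-nt exon.

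Exons that were nearly always in or out included 3 with skipping-junction counts of 0 in both libraries, in *Camk2g* (95 nt), in *Ppp3cb* (30 nt) and in *Camk2d* (60 nt, another exon than that of the linker, with reads on its upstream junction only). The others included the 201-nt exon of *Ppp3ca* at 99.4 and 100%, and the 129-nt exon of *Camkk2* at 98.9 and 97.8%. The 33-nt exon of *Camk2b*, which shares no more than 10 of 33 letters with the 33-nt exons of the other CaMKII genes, had 0 reads on its inclusion junctions against 293 and 173 skipping reads, which allows up to 1.29 and 2.17% by the Wilson interval on junction reads. The male library had 10 reads and the female 0 on the exon itself.

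**Figure D2:**
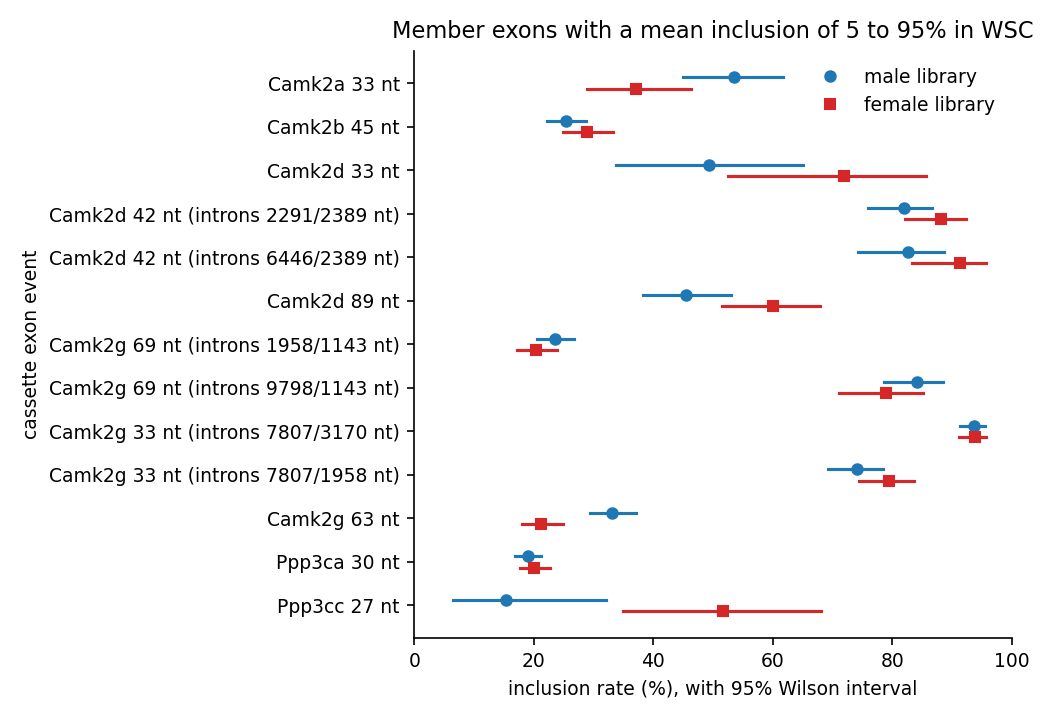
Inclusion rate (%) of the 13 member events between 5 and 95% in the male (circles) and female (squares) library, with 95% Wilson intervals of the counting error. A rate counts only the junctions of its own event and leaves out reads to other alternative exons. Where an exon has 2 events, the lengths of the introns to the flanking exons are given; intervals of the 2 libraries are apart for the Camk2g 63-nt and the Ppp3cc 27-nt exon.

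Inclusion differed between the libraries for 3 of the 29 events by Fisher's exact test (two-sided, inclusion and skipping reads, Benjamini-Hochberg FDR 0.1), against 4.26% of 9396 covered events. The 63-nt exon of *Camk2g* was at 33.2% in the male library (29.4 to 37.2) and 21.2% in that of the female (17.98 to 24.9), with an adjusted p of 2.1e-05 by Fisher's exact test. The 27-nt exon of *Ppp3cc* was at 15.3% (6.41 to 32.1) and 51.6% (34.8 to 68.0), from 34 and 47 junction reads, with an adjusted p of 0.0268 by Fisher's exact test. The 33-nt exon of *Camk2a* was at 53.4 and 37.1%, with an adjusted p of 0.053 by Fisher's exact test. These tests compare the reads of 2 libraries of 1 group and not the sexes, and their p-values cover counting error only, with reads taken as independent molecules. With junction reads alone, Fisher's exact test called 1 of the 3, the *Camk2g* exon, at an adjusted p of 0.0044. The 89-nt exon of *Camk2d*, whose length is not divisible by 3, was at 45.5 and 60% (adjusted p = 0.183 by Fisher's exact test). Its upstream junction had 49 and 96 reads and its downstream junction 108 and 63, so the 2 junctions moved in opposite directions between the libraries.

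NOVA CLIP asks which of these transcripts NOVA touched in motoneurons and in the whole cord. Tags were counted on the strand of each protein-coding gene, on the stretches of its span that no other protein-coding gene shares. They are given as CPM, the usual scale relative to all tags of the library counted on these genes. A gene's tags follow the amount of its transcript as well as binding, and these cannot be told apart here. Of 10 members, 8 passed the filter on low counts, and *Camkk2* and *Ppp3r1* did not. By edgeR's quasi-likelihood test at a Benjamini-Hochberg FDR of 0.01 over 4538 genes, 1 member was higher in MN and 4 were lower, against 28.2% higher and 29.2% lower among all genes tested. With stretches shared by several genes counted for each of them, 9 members were tested, 1 was higher and 5 were lower, the added one being *Ppp3r1*. The median difference (MN minus WSC, log2) was -0.27 over the 8 members and -0.02 over all genes tested. The number of members called, 5 of 8, is near the background.

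The catalytic subunits of calcineurin went in different directions. *Ppp3ca* (chromosome 3, 136333088 to 136600691), the member with the most MN tags, had 724 to 1304 CPM in the 8 MN libraries (median 931) and 697, 698, 700 and 730 in the WSC libraries. In 7 of 8 MN libraries it lay above every WSC library. The difference was 0.50 ± 0.10 (log2 ± SE; adjusted p = 0.000135, edgeR's quasi-likelihood test with Benjamini-Hochberg adjustment). Exonic and intronic tags were also fitted separately, each relative to all tags of its own kind, and MN libraries held a smaller share of exonic tags than WSC libraries. On that scale the difference was 1.02 for exonic tags (adjusted p = 1.4e-08, edgeR) and -0.04 for intronic tags (adjusted p = 0.74, edgeR), which does not say which tags made up the difference of the whole gene.

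*Ppp3cb* (chromosome 14, 21318586 to 21365795) had 44.3 to 146 CPM in MN (median 111) and 189, 197, 213 and 222 in WSC. Every MN library lay below every WSC library, as for 18.9% of the genes tested. It was lower in MN by a log2 difference of -0.65 ± 0.13 (adjusted p = 0.000109, edgeR), and among intronic tags by -0.74 (adjusted p = 0.000512, edgeR). The call was lost among exonic tags (-0.45, adjusted p = 0.0516, edgeR) and with line 17 alone (-0.55, adjusted p = 0.0104, edgeR). *Ppp3cc* (chromosome 14, 70617705 to 70689257) had 0 to 66.0 CPM in MN (median 39.7, 77 tags in all) and 28.6, 35.7, 35.8 and 40.9 in WSC. The groups overlapped, and the difference of 0.59 ± 0.23 did not pass the threshold (adjusted p = 0.028, edgeR). In the libraries with the long barcode it was 0.76 ± 0.23 and passed (adjusted p = 0.00451, edgeR). It did not pass with line 6 alone (adjusted p = 0.115, edgeR) or line 17 alone (adjusted p = 0.0768, edgeR), and intronic tags gave -0.13 (adjusted p = 0.685, edgeR).

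The regulatory subunit *Ppp3r1* (chromosome 11, 17059266 to 17100378) shares its span with *Wdr92*, and 55.6% of the span belongs to *Ppp3r1* alone. On that stretch it had 15.2 to 54.7 CPM in MN (median 33.6, 60 tags in all) and 13.6, 15.3, 18.4 and 19.1 in WSC. Over the whole span, counted after the data were seen, it had 205 to 504 CPM in MN (median 425) and 623, 650, 656 and 733 in WSC. The whole span gave a difference of -0.65 ± 0.11 (adjusted p = 1.2e-05, edgeR, among 29.1% of genes called lower in that count), and the stretch of *Ppp3r1* alone gave 1.04 ± 0.25 without the filter on low counts (adjusted p = 0.000272, edgeR). With either line alone that stretch passed the filter, at 1.29 for line 6 (adjusted p = 0.00283, edgeR) and 1.24 for line 17 (adjusted p = 0.00193, edgeR). The direction for *Ppp3r1* therefore depends on which tags count as its own. Of the whole-span tags, 80.7% in MN and 93.2% in WSC lay in the 3' UTR of *Ppp3r1*. The stretch of *Ppp3r1* alone was almost only intronic, with at most 1 exonic tag in an MN library and 2 in a WSC library. Across all genes, MN libraries held a larger share of intronic tags than WSC libraries, and its part in the positive difference was not tested.

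Among the CaMKII genes, the forebrain isoform *Camk2a* (chromosome 18) had the lowest MN signal relative to WSC. It had 5.79 to 140 CPM in MN (median 17.0, 33 tags in all) and 71.0, 80.5, 87.1 and 95.5 in WSC. In 7 of 8 MN libraries it lay below every WSC library, and the exception, line 17 replicate 1, had 7 tags. The difference was -1.90 ± 0.27 (adjusted p = 6.7e-07, edgeR). It stayed called with each of the 12 libraries left out in turn, at -2.18 to -1.74.

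*Camk2g* (chromosome 14, 21554097 to 21613310), the main CaMKII transcript of the tissue, had 40.8 to 120 CPM in MN (median 87.1) and 119, 126, 138 and 150 in WSC. All but 1 MN library lay below every WSC library. The difference was -0.58 ± 0.15 (adjusted p = 0.00153, edgeR). The call was lost in the 4 MN libraries with the long barcode (-0.47, adjusted p = 0.0108, edgeR) with either line alone (adjusted p = 0.0356 for line 6 and 0.0174 for line 17, edgeR), and among exonic tags (-0.37, adjusted p = 0.104, edgeR).

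*Camk2b* (chromosome 11, 5869647 to 5966365) and *Camk2d* (chromosome 3, 126299220 to 126547972) were not called, and their groups overlapped. *Camk2b* had 81.1 to 167 CPM in MN (median 120) and 104, 105, 113 and 126 in WSC, with a difference of 0.05 ± 0.14 (adjusted p = 0.78, edgeR). *Camk2d* had 260 to 384 in MN (median 345) and 329, 351, 360 and 366 in WSC, with a difference of 0.04 ± 0.09 (adjusted p = 0.74, edgeR). Relative to all tags of their own kind, the exonic tags of *Camk2d* differed by 0.42 ± 0.11 (adjusted p = 0.00212, edgeR) and its intronic tags by -0.36 ± 0.11 (adjusted p = 0.0107, edgeR, just short of the threshold). Within the gene, introns held 53.4% of the tags in MN and 39.02% in WSC, so the separate fits do not give the direction of either kind on the scale of the whole gene.

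*Camk4* (chromosome 18) had 91.3 to 281 CPM in MN (median 119) and 296, 302, 316 and 317 in WSC, and every MN library lay below every WSC library. The difference was -1.24 ± 0.13 (adjusted p = 2.3e-09, edgeR). Relative to tags of their own kind, intronic tags gave -0.45 ± 0.15 (adjusted p = 0.0182, edgeR) and exonic tags -1.60 ± 0.20 (adjusted p = 1.5e-07, edgeR). Its activator *Camkk2* (chromosome 5, 123183213 to 123229391) had only 6 tags in the 8 MN libraries, 0 in 4 of them, and 10.2, 11.9, 14.3 and 15.4 CPM in WSC. In the 2 libraries of line 17 with 1 tag each it reached 20.1 and 15.2 CPM, so the MN libraries are too shallow to rank it.

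**Figure D3:**
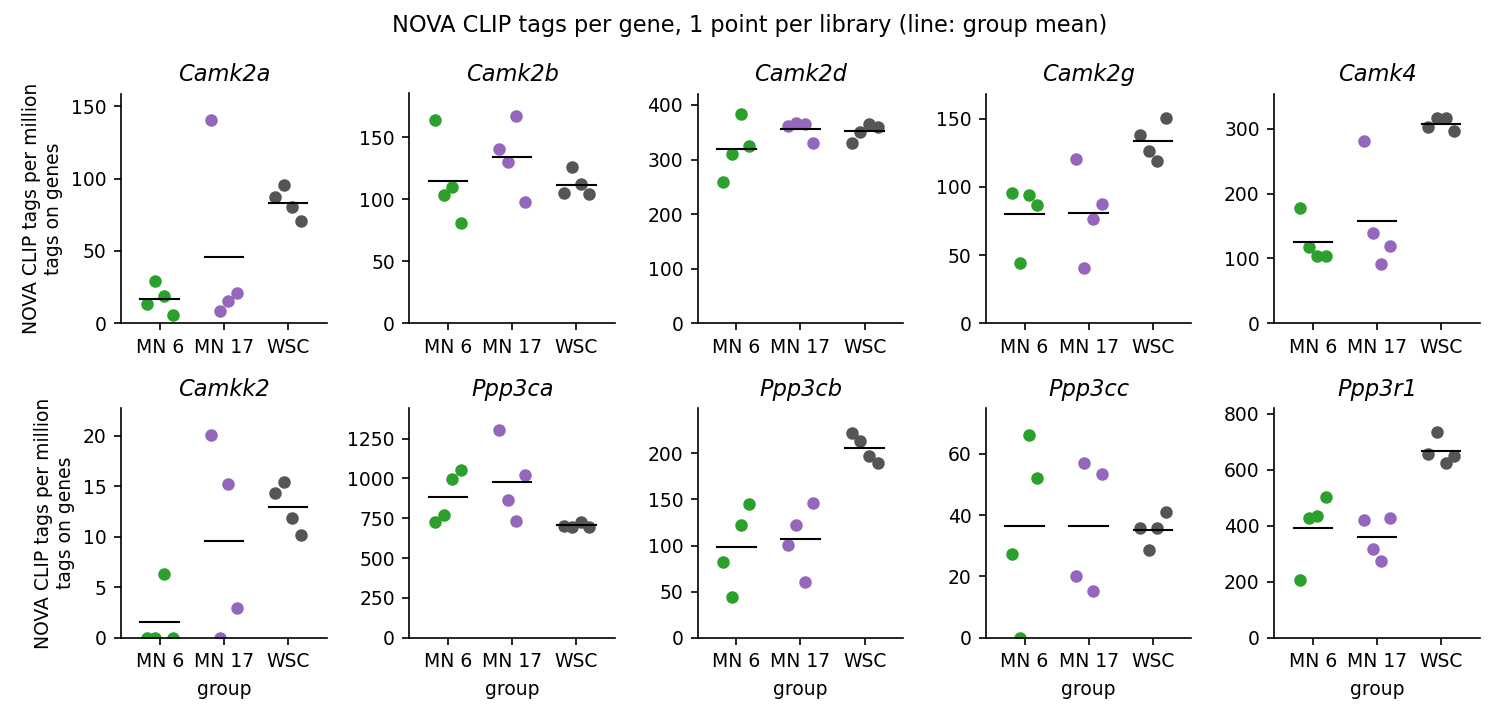
NOVA CLIP tags (CPM) of each gene, with 1 point per library of MN line 6, MN line 17 and WSC and a line at the group mean. Ppp3r1 is counted over its whole span, shared with Wdr92, and the other genes over stretches of their own; all MN points lie below all WSC points for Camk4, Ppp3cb and Ppp3r1.

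The 2 transgenic lines were also compared with each other. Of 4538 genes, 0 differed between line 6 and line 17 at FDR 0.01 by edgeR, and 216 had an unadjusted p under 0.05. None of the 8 members tested was among these 216. With the replicate number as a block in the 8 MN libraries alone, a fit added after the data were seen, 0 genes were again called and 270 had an unadjusted p under 0.05, with none of the members among them.

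The part of the gene that held the tags also differed between MN and WSC, as it did across the libraries as a whole. The share in introns was larger in MN than in WSC for all 10 members in the pooled tags, for example 52.6 against 43.6% in *Ppp3ca* and 63.7 against 20.5% in *Camk4*. In *Camk4* the 3' UTR held 36.3% of the MN tags and 79.0% of the WSC tags, and in *Camk2a* 51.5 and 84.2%. Over the MN libraries with at least 10 tags in the gene, the 3' UTR share of *Camk4* ran from 17.6 to 71.4%, against 77.4 to 81.2% in WSC. The coding sequence of *Camk2g* held 13.8% of the tags in MN and 29.2% in WSC. *Ppp3cc* and *Camk2b* were the most intronic members, with 89.6 and 79.2% in MN and 82.2 and 54.4% in WSC.

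**Figure D4:**
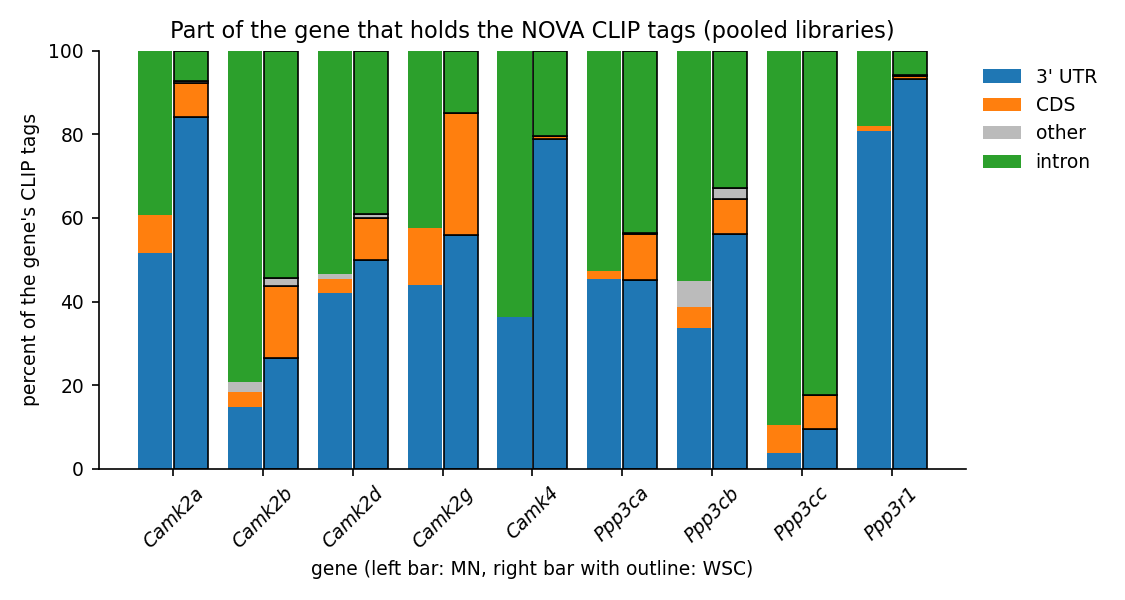
Share (%) of each gene's CLIP tags in the 3' UTR, coding sequence (CDS), other exonic parts and introns, for pooled MN libraries (left bar) and pooled WSC libraries (right bar, outlined). The intron share is larger in MN for each gene shown, and Camkk2 is left out because it had 6 MN tags.

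*Ppp3ca* was the exception in its 3' UTR, which held 45.4% of the tags in MN and 45.1% in WSC. Its coding sequence held 1.92% in MN and 10.97% in WSC. In WSC, 543 of 9891 tags (5.49%) fell in a single 50-nt bin of the coding sequence, with 96 to 177 tags and 28 to 31 distinct tag starts per library. MN libraries had 2 of 1512 tags (0.132%) there. The bin was chosen for its tags, which are mostly from WSC, so these values are a description. It is shown because it opens with a cluster of NOVA motifs.
Ppp3ca coding bin (chr3:136598007-136598056, plus strand): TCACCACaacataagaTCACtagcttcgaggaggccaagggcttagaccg

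Binding near the cassette exons was compared as the tags within 400 nt of each side of the exon, relative to the tags elsewhere in the same gene. Of the member exons, 4 had enough tags (10 in each group), and 2 were called by edgeR at FDR 0.1, against 52.8% of 400 exons tested, whose median difference was 0.69. The count for members is at the background and is no result about them.

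Around the rarely included 27-nt exon of *Ppp3cb* there were 0 to 23 tags in the MN libraries (35 in all) and 30, 47, 97 and 105 in the WSC libraries. Of the 35 tags, 23 came from line 17 replicate 4, the deepest MN library. Of the tags in the window, 29 of 35 in MN and 221 of 279 in WSC lay upstream of the exon. The difference relative to the gene was 0.94 ± 0.35 (adjusted p = 0.0233, edgeR). It fell to 0.36 (adjusted p = 0.582, edgeR) without that library, and to 0.01 (adjusted p = 0.991, edgeR) when only intronic tags were counted in the window and in the gene. The share of this site among the intronic tags of the gene thus differed by less than its error.

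Around the 60-nt linker exon of *Camk2d* there were 19 MN and 75 WSC tags, with a difference of 1.20 ± 0.49 (adjusted p = 0.0379, edgeR). With intronic tags alone it was 0.71 ± 0.51 (adjusted p = 0.386, edgeR), and without line 17 replicate 2 or replicate 4 it was no longer called (0.86 and 1.07). The 30-nt exon of *Ppp3cb*, included in all WSC reads, had 10 and 62 tags around it and a difference of 1.19 ± 0.63 (adjusted p = 0.111, edgeR). The 27-nt exon of *Ppp3cc* had 13 and 70 tags and a difference of 0.12 ± 0.54 (adjusted p = 0.867, edgeR). The 30-nt exon of *Ppp3ca* and the remaining CaMKII exons had fewer than 10 MN tags within 400 nt.

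**Figure D5:**
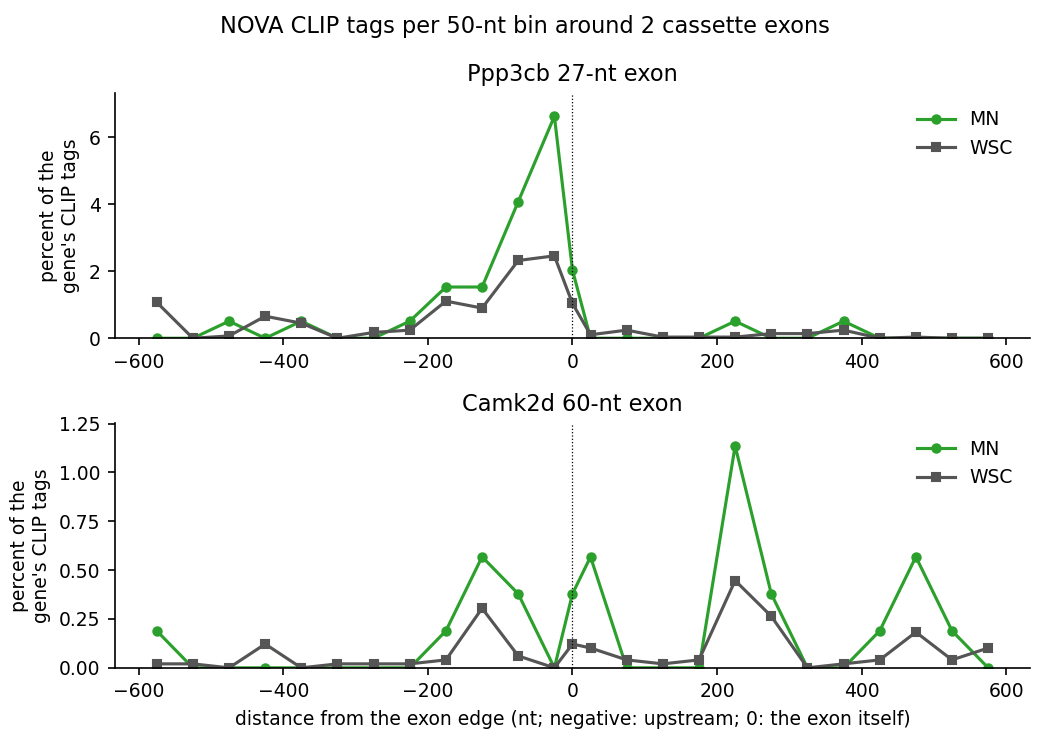
CLIP tags per 50-nt bin, as a percent of the gene's tags in pooled MN (circles) and pooled WSC (squares) libraries, against the distance from the edge of the 27-nt exon of Ppp3cb and the 60-nt exon of Camk2d. Tags of Ppp3cb pile up in the 200 nt upstream of the exon in both groups, from 35 MN and 279 WSC tags; tags of Camk2d are scattered, from 19 MN and 75 WSC tags.

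Among the 29 other pathway genes, 19 were tested in CLIP, with a median difference of -0.34 against -0.02 over all genes tested. By edgeR at FDR 0.01, 3 of the 19 were higher in MN and 10 were lower, against 28.2 and 29.2% of all genes tested. The higher ones were *Calm2* (0.47), which encodes calmodulin, *Camk1d* (0.53), a CaM kinase of the CaMKI family, and *Cabin1* (0.74), a calcineurin-binding protein. Among the lower ones were the CaMKII inhibitor genes *Camk2n1* (-1.17) and *Camk2n2* (-2.13), *Camkk1* (-1.13), the second kinase that activates CaMKIV, and *Pcp4* (-1.97), a calmodulin-binding protein. *Calm3*, which also encodes calmodulin, was lower in MN (-1.03).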

How the data were processed

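RNA-seq reads of the 2 WSC libraries were mapped by the authors to mm9 and its exon junctions with OLego, kept where the position was unambiguous, and counted with Quantas. The authors deposited whole-number read counts per gene with their RPKM, and read counts on the exon, on each inclusion junction and on the skipping junction per cassette exon event. CLIP reads were mapped by the authors to mm9 with novoalign and collapsed to unique tags, tags next to GTGTC-like primer sites were removed, and the positions of the remaining tags were deposited for each of the 12 libraries.

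Here, tags were counted on the strand of each annotated protein-coding gene (GENCODE for NCBIM37, the mm9 build), without the mitochondrial chromosome. Only stretches that no other protein-coding gene on that strand shares were used. Counts were tested with edgeR 4.0.16 (TMM, filterByExpr, quasi-likelihood) in R 4.3.3, 8 MN against 4 WSC libraries, with Benjamini-Hochberg adjustment over all genes at FDR 0.01, and around exons with the log of the gene's other tags (plus 1) as offset at FDR 0.1. Inclusion and skipping counts of the 2 RNA-seq libraries were tested with Fisher's exact test (scipy 1.17.1). Gene levels were compared between the 2 RNA-seq libraries on log2(RPKM + 0.1), without a test, among genes with a mean of at least 1 RPKM, and a difference over 25% was counted. Alternatives were DESeq2 1.42.0, other scalings, filters, windows and parts of the gene, each line alone, 1 barcode design alone, a replicate block and the fit without each library. Counting over whole gene spans, the window test with intronic tags alone and a replicate block between the 2 MN lines were added after the data were seen.

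On simulated counts for 4538 genes, the CLIP gene test recovered 90 of 100 genes changed 2-fold and 99 of 100 changed 4-fold, with 5 false calls. On 432 simulated windows, the window test recovered 6 of 34 changed 2-fold and 24 of 28 changed 4-fold, with 4 false calls.

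The members, the pathway list and the 9 marker lists were chosen with earlier results of these data known. All 10 members are named, with full values for each exon between 5 and 95% inclusion that the text describes. Replicates of CLIP are biological replicates per the labels, and their tags carry a degenerate barcode, and edgeR's p-values cover the spread between these libraries. Intervals and Fisher's p-values on RNA-seq reads cover counting error only. Reads that fit more than 1 position were not counted, so genes with near-identical copies are undercounted.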

Additional observations from a re-analysis of the deposited data

Results flagged for a closer look

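In 5 of 30 sets of 4 libraries (10 members in 3 CLIP groups), 1 library stood apart from the other 3 by Dixon's criterion at 95%, which chance alone meets in about 1 of 20 sets. For *Camk2a*, line 17 replicate 1 had 140 CPM, from 7 tags, and the other libraries of that line had 8.16 to 20.7. For *Camk2g*, line 6 replicate 2 had 44.3 CPM, from 3 tags, and the others had 86.9 to 95.6. For *Camkk2*, line 6 replicate 3 had 6.29 CPM, from 2 tags, and the others had 0. For *Camk2d*, line 17 replicate 4, with 223 tags, had 330 CPM and the others had 361 to 367. For *Ppp3ca*, WSC replicate 3, with 3318 tags, had 730 CPM and the others had 697 to 700.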

How the results depend on the processing

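Of the member genes, *Ppp3ca*, *Camk2a*, *Camk2g*, *Camk4* and *Ppp3cb* were called in the same direction with each of the 12 CLIP libraries left out in turn, at 0.47 to 0.55, -2.18 to -1.74, -0.66 to -0.50, -1.29 to -1.17 and -0.81 to -0.59. The members called higher in MN (1) numbered 3 with the long barcode alone, 2 with line 6 alone, 2 with line 17 alone, 2 with exonic and 0 with intronic tags, and 1 to 3 with a library left out. The added members were *Ppp3r1* on its own stretch (long barcode and either line), *Ppp3cc* (long barcode) and *Camk2d* (exonic tags). With a library left out, *Ppp3r1* passed the filter in 6 fits and was called in 6 (1.23 to 1.31). *Ppp3cc* was tested in 6 such fits and called in 1 (0.59 to 0.68). Those called lower (4) numbered 3 with line 6 alone, 3 with the long barcode alone and 5 without the filter on low counts. They numbered 2 with line 17 alone, 2 with exonic and 1 with intronic tags. With exonic or intronic tags 6 members were tested, and *Camk2a* and *Camk2g* were not among those tested with intronic tags. All genes called (2602 of 4538 tested) numbered 1097 of 2243 with exonic and 732 of 2714 with intronic tags. The median of all genes shifted to -0.11 with library totals and to -0.31 without the filter on low counts, and *Ppp3ca* was then not called without the filter (0.26, adjusted p = 0.0712, edgeR).

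Members near no difference changed sign. *Camk2b* was at -0.040 with library totals, -0.16 without the filter, -0.034 with the long barcode alone, -0.27 with intronic tags and -0.0012 to 0.15 with a library left out. *Camk2d* was at -0.00039 with DESeq2, -0.053 with library totals, -0.19 without the filter, -0.36 with intronic tags and -0.014 to 0.075 with a library left out. With intronic tags alone *Ppp3ca* was at -0.043 and *Ppp3cc* at -0.13.

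Member exons called in the window test (2) numbered 0 with intronic tags, 1 with the long barcode alone and 0 to 3 with a library left out, and all exons called (211 of 400 tested) numbered 122 of 221 with 200 nt, 474 of 995 with 1000 nt, 37 of 245 with intronic tags and 98 to 214 with a library left out. The *Ppp3cc* exon was at -0.052 with 200 nt. Line 17 replicate 4 was the library without which 0 of 2 member exons and 98 of 212 exons tested were called. Replicate numbers did not pair MN with WSC libraries, where 0 of 8 pairs of same-numbered libraries correlated above 0.1 (-0.20 to 0.092). Of the 4 pairs of line 6 and line 17, in which same-numbered libraries share the longest tag length and the barcode design, 3 did (0.079 to 0.32). In all, 11 of 24 library and group combinations correlated best with their own number. With the replicate block, 1 member gene was higher and 4 lower, as without it, and 0 member exons were called (0.90 for the 27-nt *Ppp3cb* exon and 1.13 for the 60-nt *Camk2d* exon).

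In RNA-seq, without the filter on low values 3996 of 19215 genes in place of 1794 of 11940 differed by over 25% between the 2 libraries. With junction reads alone, 1 member event in place of 3 and 122 of all events in place of 400 were called by Fisher's exact test. Adding reads on the exon, or adding up the inclusion junctions in place of averaging them, raised the inclusion rates, for example to 32.9 and 32.6% for the 30-nt *Ppp3ca* exon. Both ways of counting put more reads on the inclusion side against the same skipping reads, so this rise follows from the formula. The cause of the other changes was not tested. MN depth limits these values: 33 tags of *Camk2a* and 6 of *Camkk2* over 8 libraries give coarse values.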
